A study of Mus musculus with 6 samples.

Results

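The genes described here are 29 genes of cholesterol and fatty acid synthesis, taken by name from the 32285 genes of the expression tables of mouse esophageal organoids. They comprise 17 genes of sterol synthesis (6 of the mevalonate steps and 11 that act on squalene and the sterol ring), 8 genes of fatty acid synthesis, elongation, desaturation and activation, and 4 regulators or transporters. The organoids were grown from esophageal epithelial cells of C57BL6 mice that were positive for integrin-b1, negative for DAPI, and sorted by the Cyto-ID dye, which stains autophagic vesicles, into Cyto-ID Low and Cyto-ID High cells. Each group has 3 libraries, labelled F2, M3 and F6 in both. Wells were seeded with 500 to 1000 sorted cells in Matrigel and cultured for 15 days, and both groups received the same medium with EGF, Noggin/R-Spondin-conditioned medium and Y27632. The sort was made on the founding cells only, so a library holds their progeny in every state of the organoid. Nothing in the labels says whether the libraries came from separate animals, so the p-values measure the spread between these 6 libraries, which may be partly technical.

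Of 26808 cell barcodes, 25154 had 500 or more detected genes and were used. Total UMIs (unique molecular identifiers, 1 per captured RNA molecule) ran from 8457489 to 48957523 per library, and the median per cell from 1940.5 (Cyto-ID High F6) to 10038 (Cyto-ID High F2). The cells were divided by Krt13, a keratin of the suprabasal layers of the esophagus, at a deposited value of 3, which equals 19.1 Krt13 UMIs per 10000. This gave 15202 Krt13-low and 9952 Krt13-high cells, and 3427 cells (13.6%) lay within 0.5 of the cut. The 5 superficial markers (Sprr3, Sprr2f, Psca, Cnfn and Lor), which the split did not use, summed to 704 to 4386 CPM in Krt13-low and 10802 to 53646 CPM in Krt13-high cells, where CPM is the mean over cells of UMIs of the gene, scaled to 1000000 UMIs in the cell. The 7 basal markers summed to 9932 to 22992 CPM in Krt13-low and 9238 to 17780 CPM in Krt13-high cells. In the layer comparison 4 of the 7 fell and 3 rose, with a median log2 change of −0.68 (4 fell and 1 rose, with a median of −1.07, without the scaling described there). In either layer, markers of fibroblasts summed to at most 5.84 CPM, of endothelial cells to at most 1.08 CPM, of immune cells to at most 0.27 CPM and of adipocytes to at most 0.135 CPM. The 5 sebocyte markers (Mc5r, Awat1, Awat2, Soat1 and Plin5) summed to 12.2 to 24.6 CPM in Krt13-low and 4.70 to 15.1 CPM in Krt13-high cells. Awat1 was at 0 in every library, and only 1 of the 5 was high enough to be tested in either layer. In Cyto-ID High M3 Krt13-low cells without UMIs of mitosis markers, Soat1 alone was above 0, the sum being 16.0 CPM.

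Cholesterol is built from acetyl-CoA through the mevalonate pathway, which condenses small units into squalene, and other enzymes then close squalene to lanosterol and trim and rearrange its rings. Fatty acids draw on the same acetyl-CoA, which is carboxylated, chained to palmitate, elongated, desaturated and activated. The transcription factors SREBP2 (gene Srebf2) and SREBP1 (gene Srebf1) are known to drive sterol and fatty acid genes respectively, and INSIG1 retains them in the endoplasmic reticulum when sterols are plentiful. Stratified epithelia use cholesterol, fatty acids and ceramides for membranes and for the barrier of their outer layers.

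The window before the start of a gene is where such factors are known to act, and 23 of the 29 genes matched a RefSeq start (GRCm38.p6). In the 250 bases before the start, on both strands, a CCAAT box (ATTGG or its complement CCAAT), a site bound by NF-Y, was found in 20 of the 23 genes, against 37.5% of all 27025 genes. By window it was found in 21 of the genes' 29 windows (72.4%), against 33.8% of all 32851 windows. It was found in all 14 sterol genes and all 3 regulators that matched, and in 3 of the 6 fatty acid genes that matched, the others being Acaca, Acly and Elovl6. A sterol response element spelled TCACNCCAC (N is any base) was found in 1 of the 23 genes, Hmgcs1, against 1.22% of all genes. The 4 windows below, written 5′ to 3′ on the gene's strand with the motifs in capitals, are shown for the gene with both motifs, the pair of sterol genes with the largest difference between layers, and the sterol gene with the smallest.
Hmgcs1 (chr13:119690101-119690350, plus strand): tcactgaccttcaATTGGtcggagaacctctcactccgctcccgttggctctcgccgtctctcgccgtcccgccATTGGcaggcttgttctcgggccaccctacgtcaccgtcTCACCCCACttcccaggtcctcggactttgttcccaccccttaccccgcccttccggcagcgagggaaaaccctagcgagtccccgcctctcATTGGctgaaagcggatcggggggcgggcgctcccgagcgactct
Hsd17b7 (chr1:169969206-169969455, minus strand): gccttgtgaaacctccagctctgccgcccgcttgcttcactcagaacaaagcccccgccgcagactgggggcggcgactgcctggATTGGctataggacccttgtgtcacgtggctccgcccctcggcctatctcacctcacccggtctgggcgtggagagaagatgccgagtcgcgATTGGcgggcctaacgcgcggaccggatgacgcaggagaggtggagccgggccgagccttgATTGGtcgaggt
Sc5d (chr9:42264301-42264550, minus strand): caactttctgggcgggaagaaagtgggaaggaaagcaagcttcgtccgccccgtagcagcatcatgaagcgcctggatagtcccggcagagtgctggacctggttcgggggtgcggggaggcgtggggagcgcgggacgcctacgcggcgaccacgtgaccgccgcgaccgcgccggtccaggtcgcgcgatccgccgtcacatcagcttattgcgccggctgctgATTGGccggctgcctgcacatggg
Dhcr7 (chr7:143822917-143823166, plus strand): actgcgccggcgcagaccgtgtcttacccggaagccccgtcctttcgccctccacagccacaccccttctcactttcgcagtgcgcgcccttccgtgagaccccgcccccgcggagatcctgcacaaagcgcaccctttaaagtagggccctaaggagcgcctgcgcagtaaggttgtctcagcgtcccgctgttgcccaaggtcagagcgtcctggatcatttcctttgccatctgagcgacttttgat
The first holds 3 CCAAT boxes and the sterol response element TCACCCCAC, whose first base lies 137 bases before the start. The window of Hsd17b7 holds 3 CCAAT boxes and that of Sc5d holds 1, while the Dhcr7 window shown holds neither motif and another Dhcr7 start has a CCAAT box. A match of letters describes the window and shows no binding.

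The first question was how these genes differ between the layers of the organoid. Nearly the whole sterol pathway was higher in Krt13-high cells: 16 of 17 sterol genes rose, by a median of 1.43 on the log2 scale, and Dhcr7 was the one that did not pass the test. Fatty acid genes rose less, 7 of 8 passing with a median of 0.80, and 3 of 4 regulators and transporters passed. Of the 29 genes 26 rose and none fell, in a comparison in which 29.3% of all genes tested rose and 30.6% fell and the median of all genes was −0.03. The test was limma on log2(CPM + 1) after TMM scaling (trimmed mean of M values, a scale factor for each column), with the library as a block and Benjamini-Hochberg adjustment over 12138 genes, at a threshold of 0.05. Without the scale factors the median of all genes moved to −0.37, the share of calls that were higher went from 48.9% to 20.7%, and 23 of the 29 genes rose and 2 fell. Under that scaling the sterol median was 1.05 and the fatty acid median 0.42.

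**Figure D1:**
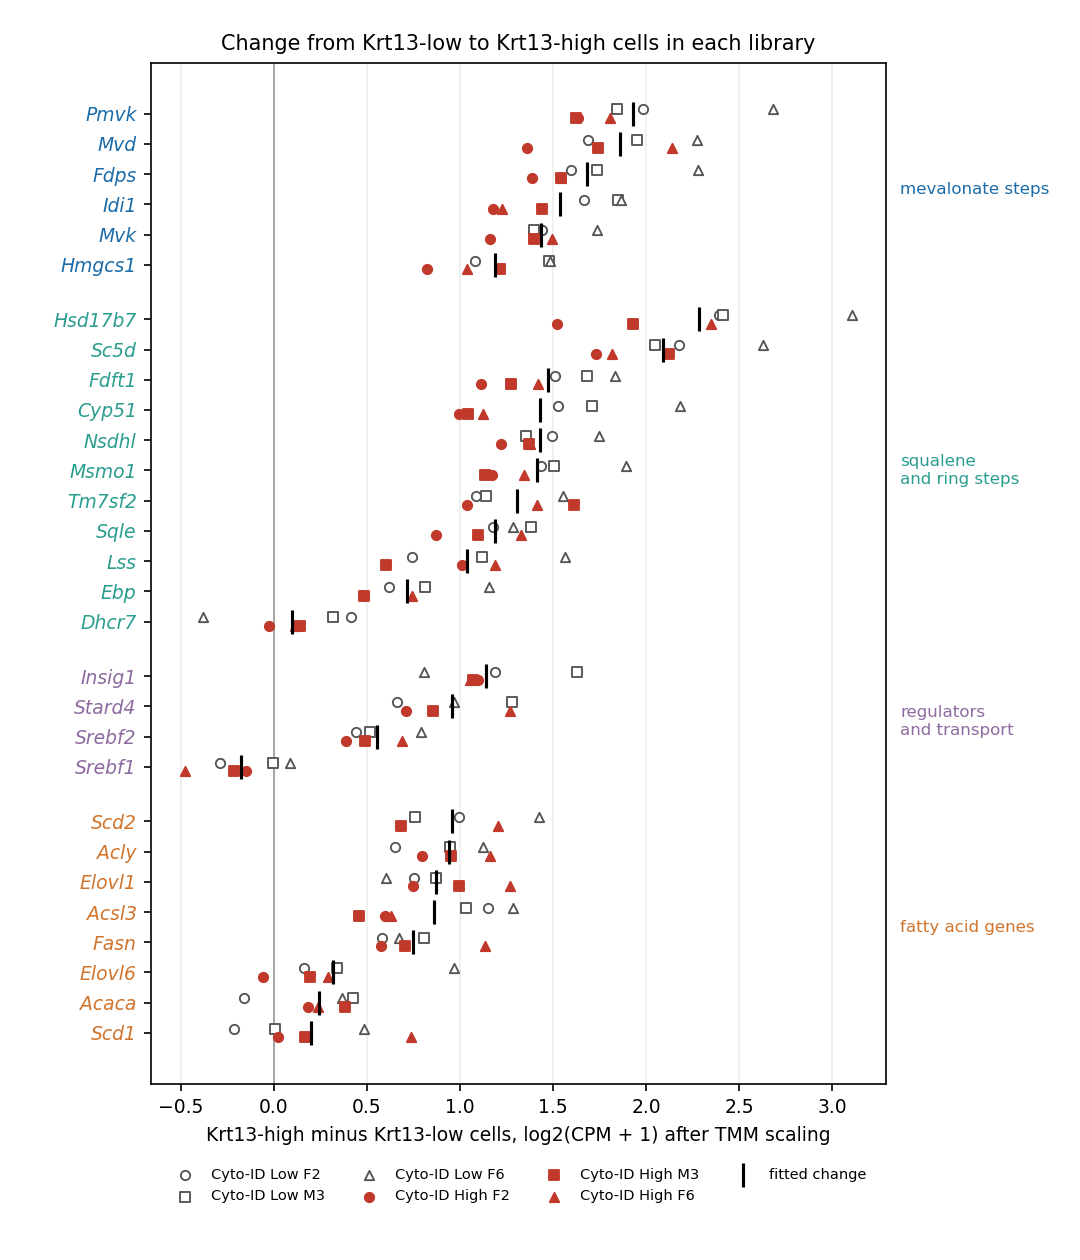
Difference between Krt13-high and Krt13-low cells of each library for the 29 genes, in log2 of CPM + 1 after TMM scaling, grouped by role. Open symbols are Cyto-ID Low and filled symbols Cyto-ID High libraries, circles, squares and triangles are F2, M3 and F6, and the black tick is the fitted change. Every sterol gene but Dhcr7 lies to the right of 0 in all 6 libraries, whereas Acaca, Elovl6 and Scd1 straddle 0 or lie near it (their fitted changes turn negative without TMM scaling).

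Below, levels are CPM without TMM scaling, listed for F2, M3 and F6, whereas changes are fitted log2 differences after TMM scaling. Among the mevalonate genes all 6 rose, with a median change of 1.61 and adjusted p from 9.73e-09 to 1.26e-07. Hmgcs1, which makes HMG-CoA, stood at 79.9, 78.3 and 60.7 CPM (Cyto-ID Low) and 89.2, 71.0 and 86.6 CPM (Cyto-ID High) in Krt13-low cells, and 119, 171 and 127 CPM and 125, 127 and 149 CPM in Krt13-high cells. All 6 Krt13-high values lay above all 6 Krt13-low values, and the change was 1.19 (SE 0.0855). Mvk, the first of the mevalonate kinases, stood at 19.3, 38.9 and 23.7 CPM (Cyto-ID Low) and 27.8, 56.7 and 25.3 CPM (Cyto-ID High) in Krt13-low cells, and 38.1, 80.8 and 59.9 CPM and 50.3, 115 and 60.9 CPM in Krt13-high cells. The M3 libraries were the highest in both layers, so the ranges overlapped, but the step within each library lay between 1.16 and 1.74. Pmvk, the second kinase, had the largest change of these genes at 1.93 (SE 0.113). Its level was 77.4, 109.9 and 60.3 CPM (Cyto-ID Low) and 69.0, 149 and 61.2 CPM (Cyto-ID High) in Krt13-low cells, and 216, 307 and 289 CPM and 171, 353 and 181 CPM in Krt13-high cells. The layers did not overlap.

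Mvd, which decarboxylates mevalonate diphosphate to the first isoprene unit, changed by 1.86 (SE 0.107). It was found at 18.3, 27.5 and 18.9 CPM (Cyto-ID Low) and 18.9, 33.6 and 16.2 CPM (Cyto-ID High) in Krt13-low cells, and 43.2, 85.0 and 70.4 CPM and 39.8, 87.7 and 62.4 CPM in Krt13-high cells. Idi1 interconverts the isoprene units, and was at 67.4, 48.1 and 42.7 CPM (Cyto-ID Low) and 77.7, 64.6 and 97.8 CPM (Cyto-ID High) in Krt13-low cells, and 151, 137 and 116 CPM and 140.2, 135 and 192 CPM in Krt13-high cells. For both genes every Krt13-high value exceeded every Krt13-low value, and Idi1 changed by 1.54. Fdps, which joins the units to farnesyl diphosphate, was at 258, 335 and 165 CPM (Cyto-ID Low) and 249.5, 394 and 229 CPM (Cyto-ID High) in Krt13-low cells, and 545, 867 and 593 CPM and 517, 878 and 558 CPM in Krt13-high cells. Its levels more than doubled in each of the 6 libraries, and its change was 1.68 (SE 0.0930, adjusted p = 1.15e-08).

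From squalene onward, 10 of 11 genes rose, with a median change of 1.42. Fdft1, which makes squalene, was at 37.6, 40.6 and 31.0 CPM (Cyto-ID Low) and 39.8, 50.6 and 48.6 CPM (Cyto-ID High) in Krt13-low cells, and 76.5, 103 and 83.4 CPM and 69.0, 94.3 and 109 CPM in Krt13-high cells. Sqle, the oxygenase that commits squalene to sterols, was at 34.6, 36.2 and 33.3 CPM (Cyto-ID Low) and 46.4, 32.2 and 51.5 CPM (Cyto-ID High) in Krt13-low cells, and 55.7, 74.5 and 60.8 CPM and 67.7, 53.5 and 109 CPM in Krt13-high cells. The layers of both genes were apart, with changes of 1.47 and 1.19. Lss closes the ring to lanosterol and was at 10.3, 9.82 and 7.07 CPM (Cyto-ID Low) and 9.24, 8.68 and 11.2 CPM (Cyto-ID High) in Krt13-low cells, and 12.6, 17.6 and 17.01 CPM and 15.7, 10.4 and 22.3 CPM in Krt13-high cells. Its layers overlapped across libraries although each library stepped upward, by 0.60 to 1.57. Cyp51 removes a methyl group of lanosterol and was at 70.6, 66.9 and 53.1 CPM (Cyto-ID Low) and 84.6, 81.4 and 93.4 CPM (Cyto-ID High) in Krt13-low cells, and 143, 171 and 180.1 CPM and 134, 129 and 171 CPM in Krt13-high cells. Tm7sf2, a sterol reductase, stood at 3.85, 5.27 and 3.82 CPM (Cyto-ID Low) and 4.00, 4.64 and 5.91 CPM (Cyto-ID High) in Krt13-low cells, and 6.68, 10.1 and 9.87 CPM and 7.48, 12.5 and 14.5 CPM in Krt13-high cells. The layers did not overlap for either gene, and the changes were 1.43 and 1.31.

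Msmo1 and Nsdhl act on the methyl groups of the ring. Msmo1 was at 87.1, 74.4 and 57.6 CPM (Cyto-ID Low) and 82.2, 51.1 and 88.7 CPM (Cyto-ID High) in Krt13-low cells, and 166, 165 and 159.7 CPM and 148, 86.7 and 189 CPM in Krt13-high cells. Nsdhl was at 21.0, 28.4 and 19.6 CPM (Cyto-ID Low) and 23.6, 23.6 and 25.9 CPM (Cyto-ID High) in Krt13-low cells, and 42.9, 57.9 and 50.3 CPM and 44.8, 47.9 and 57.4 CPM in Krt13-high cells. Cyto-ID High M3 had the lowest Msmo1 value of its group in both layers, so that the layers of Msmo1 overlapped, while those of Nsdhl were apart. The changes were 1.42 and 1.43. Hsd17b7, the keto reductase of the same steps, had the largest change of all 29 genes, 2.29 (SE 0.155, adjusted p = 7.58e-08), a 4.88-fold difference. It was found at 9.83, 7.13 and 9.28 CPM (Cyto-ID Low) and 16.5, 11.2 and 22.8 CPM (Cyto-ID High) in Krt13-low cells, and 39.7, 33.4 and 65.2 CPM and 39.3, 34.8 and 100.4 CPM in Krt13-high cells. Cyto-ID High F6 was the highest library in both layers. Sc5d, a desaturase of the late ring steps, followed with 2.09 (SE 0.101, adjusted p = 3.46e-09), a 4.25-fold difference. Its levels were 37.1, 28.1 and 29.1 CPM (Cyto-ID Low) and 36.5, 21.9 and 30.2 CPM (Cyto-ID High) in Krt13-low cells, and 120.2, 92.9 and 137 CPM and 97.9, 75.4 and 90.8 CPM in Krt13-high cells. The lowest Krt13-high library of Sc5d, at 75.4 CPM, lay above the highest Krt13-low library, at 37.1 CPM.

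Ebp and Dhcr7 departed from this pattern. Ebp, a sterol isomerase, had the smallest change among the sterol genes that rose, 0.72 (SE 0.0861, adjusted p = 1.31e-05). It was at 62.5, 69.3 and 54.6 CPM (Cyto-ID Low) and 63.9, 89.7 and 38.8 CPM (Cyto-ID High) in Krt13-low cells, and 67.5, 95.0 and 90.4 CPM and 71.1, 95.8 and 54.7 CPM in Krt13-high cells, with overlapping ranges and a step of 0.48 to 1.15 in each library. Dhcr7, a late sterol reductase, was at 14.0, 19.8 and 26.6 CPM (Cyto-ID Low) and 19.0, 21.5 and 28.0 CPM (Cyto-ID High) in Krt13-low cells, and 13.4, 19.3 and 14.8 CPM and 14.7, 18.2 and 25.2 CPM in Krt13-high cells. Its change was 0.10 (SE 0.107, 95% interval −0.13 to 0.33, adjusted p = 0.449), with 4 libraries above 0 and 2 below. Without TMM scaling it turned to −0.27 with an adjusted p of 0.0378, and with the Krt13 cut at 4 it was called higher (adjusted p = 0.0279).

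The fatty acid genes were less uniform, and for each of them the levels of the layers overlapped across libraries. How many of all genes have layers that overlap, or that lie apart as for many sterol genes, was not counted. Acly, which makes cytosolic acetyl-CoA from citrate, changed by 0.94 and stood at 21.4, 20.3 and 16.3 CPM (Cyto-ID Low) and 21.3, 18.9 and 26.6 CPM (Cyto-ID High) in Krt13-low cells, and 24.0, 31.2 and 27.1 CPM and 29.9, 28.6 and 50.6 CPM in Krt13-high cells. Fasn, the fatty acid synthase, changed by 0.75 and was at 31.1, 39.3 and 48.6 CPM (Cyto-ID Low) and 32.9, 55.6 and 32.5 CPM (Cyto-ID High) in Krt13-low cells, and 32.9, 53.9 and 57.4 CPM and 39.2, 69.5 and 60.6 CPM in Krt13-high cells. Both rose in all 6 libraries after scaling. Acaca, the carboxylase that feeds Fasn, was at 20.3, 20.2 and 24.8 CPM (Cyto-ID Low) and 20.8, 19.9 and 19.8 CPM (Cyto-ID High) in Krt13-low cells, and 12.6, 21.3 and 23.8 CPM and 18.7, 20.1 and 19.6 CPM in Krt13-high cells. Its change of 0.24 passed narrowly (adjusted p = 0.0443) and was −0.13 without TMM scaling. Acaca was called in 5 of 17 alternative analyses. Leaving out any 1 of Cyto-ID Low M3, Cyto-ID Low F6 or a Cyto-ID High library ended its call.

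The elongases and desaturases gave unequal values. Elovl1, which extends long saturated chains, changed by 0.87 and was at 36.0, 47.3 and 55.9 CPM (Cyto-ID Low) and 41.3, 70.8 and 34.9 CPM (Cyto-ID High) in Krt13-low cells, and 42.8, 67.7 and 62.7 CPM and 55.3, 108 and 71.2 CPM in Krt13-high cells. Elovl6, which extends palmitate, changed by 0.31 (adjusted p = 0.0374) but by −0.05 without TMM scaling and −0.08 with cells thinned to 1000 UMIs. Its levels were 18.9, 15.7 and 10.8 CPM (Cyto-ID Low) and 23.9, 16.8 and 27.7 CPM (Cyto-ID High) in Krt13-low cells, and 14.8, 15.6 and 16.3 CPM and 18.1, 14.8 and 28.4 CPM in Krt13-high cells, and it was called in 7 of 17 alternatives, being lost without Cyto-ID Low M3, Cyto-ID Low F6, Cyto-ID High M3 or Cyto-ID High F6. Scd2, one of the desaturases that make monounsaturated chains, changed by 0.96 and was at 138, 183 and 92.3 CPM (Cyto-ID Low) and 164, 138 and 199.6 CPM (Cyto-ID High) in Krt13-low cells, and 192, 241 and 184 CPM and 208, 169 and 384 CPM in Krt13-high cells. Scd1, its paralog, was at 34.0, 37.2 and 17.02 CPM (Cyto-ID Low) and 28.6, 23.8 and 30.8 CPM (Cyto-ID High) in Krt13-low cells, and 20.3, 28.9 and 17.8 CPM and 22.9, 20.4 and 43.3 CPM in Krt13-high cells. Its change of 0.20 (95% interval −0.05 to 0.45) did not pass (adjusted p = 0.151) and was −0.17 without TMM scaling. Acsl3, which activates fatty acids with coenzyme A, changed by 0.86 and was at 58.6, 41.4 and 46.2 CPM (Cyto-ID Low) and 64.8, 37.0 and 54.0 CPM (Cyto-ID High) in Krt13-low cells, and 91.9, 66.5 and 84.0 CPM and 78.1, 39.0 and 70.1 CPM in Krt13-high cells.

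Of the regulators, Insig1 changed by 1.14 and Srebf2 by 0.55. Insig1, itself a target of SREBP2, was at 9.86, 6.26 and 8.01 CPM (Cyto-ID Low) and 10.5, 10.0 and 18.3 CPM (Cyto-ID High) in Krt13-low cells, and 16.8, 16.96 and 10.9 CPM and 18.7, 16.9 and 32.6 CPM in Krt13-high cells. Srebf2 was at 62.9, 55.5 and 47.4 CPM (Cyto-ID Low) and 62.8, 50.0 and 67.1 CPM (Cyto-ID High) in Krt13-low cells, and 59.9, 61.8 and 60.9 CPM and 65.1, 53.9 and 90.6 CPM in Krt13-high cells, so its plain levels differed little between layers, and without TMM scaling it was not called (adjusted p = 0.0632). Stard4, a carrier of cholesterol within the cell, changed by 0.96 and was at 14.7, 16.6 and 13.5 CPM (Cyto-ID Low) and 16.0, 22.7 and 16.5 CPM (Cyto-ID High) in Krt13-low cells, and 16.7, 32.5 and 20.3 CPM and 21.2, 31.9 and 34.3 CPM in Krt13-high cells. Srebf1 was at 22.0, 13.4 and 11.1 CPM (Cyto-ID Low) and 16.6, 8.32 and 12.8 CPM (Cyto-ID High) in Krt13-low cells, and 12.4, 10.3 and 8.68 CPM and 11.7, 5.35 and 7.43 CPM in Krt13-high cells. It was lower in Krt13-high cells of every library by plain CPM, where it was called (−0.53, adjusted p = 6.25e-04), whereas after scaling its change was −0.18 (adjusted p = 0.172).

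Krt13-high cells also held 1.16 to 1.55 times the median UMIs of Krt13-low cells, and their mitosis markers summed to 52.8 to 150.7 CPM against 170.1 to 573.7 CPM, all 10 being lower. The median mitochondrial share of UMIs was lower in Krt13-high cells of each library, at 1.01% to 1.91% against 1.99% to 2.79%. Its part in the layer changes was not tested. Thinning cells to 1000 UMIs came after the split, keeps a cell's expected CPM and adds counting error. It does not test the part of depth. With cells thinned to 1000 UMIs, and with every cell that held a mitosis-marker UMI left out, 25 of the 29 genes rose in each case. Over the 11 alternatives that kept all 6 libraries, these among them, 1821 to 3845 of all genes were called higher, against 3553 in the main fit. In all, 23 of the 26 calls were made in all 17 alternatives, Srebf2, Acaca and Elovl6 being the others.

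Levels were then followed over 6 ranges of the deposited Krt13 value (below 1, then in steps of 1, to 5 and above). By plain CPM, the summed sterol genes averaged 886, 970.3, 1089, 1498, 2156 and 3061 CPM over the 6 libraries from the lowest to the highest range, 3.46-fold in all. The summed fatty acid genes averaged 374, 377, 406, 423, 532 and 655 CPM, 1.75-fold in all. The sterol mean was higher in each range than in the one before, and its larger steps led into the ranges from 3 upward. Hsd17b7 went through 11.1, 12.7, 17.1, 30.8, 50.9 and 93.9 CPM, 8.43-fold in all. Sc5d went through 28.6, 28.3, 39.4, 70.2, 105 and 147 CPM, 5.15-fold. Both genes were nearly flat below a Krt13 value of 2. Among the mevalonate genes the fold between the end ranges was 4.89 for Mvd, 4.52 for Pmvk, 3.87 for Fdps, 3.35 for Idi1, 3.20 for Mvk and 2.75 for Hmgcs1. Each of these was higher in the last range than in the first in 6 of 6 libraries.

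**Figure D2:**
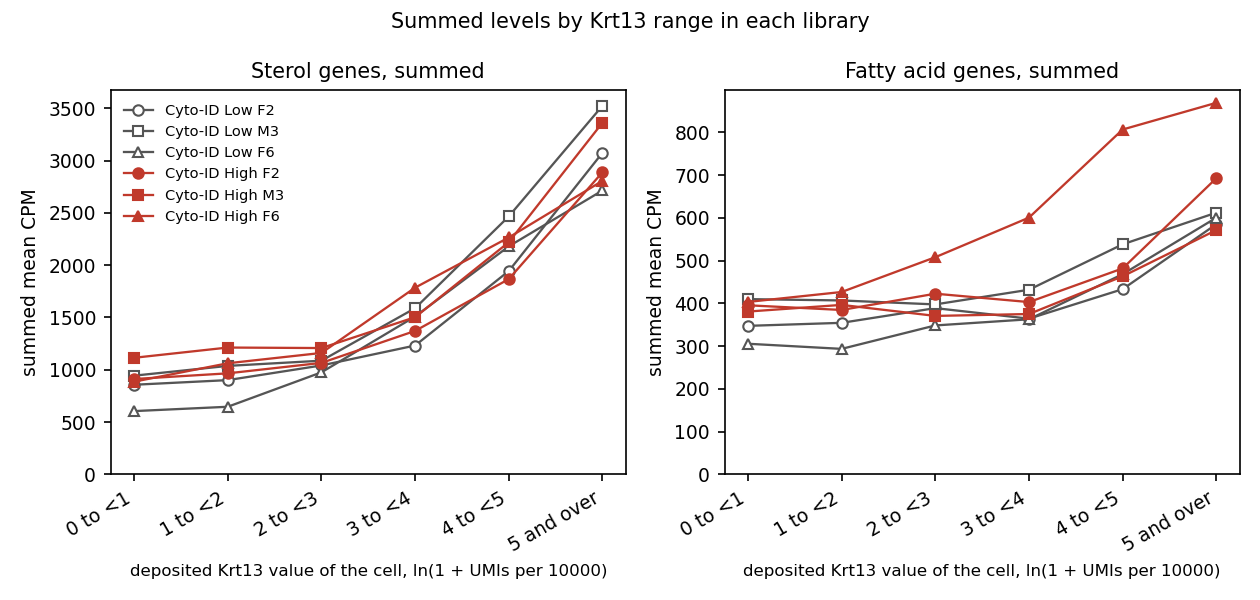
Summed CPM of the 17 sterol genes and of the 8 fatty acid genes in each library over 6 ranges of the deposited Krt13 value, without TMM scaling. Open symbols are Cyto-ID Low and filled symbols Cyto-ID High libraries. The sterol sum is highest in the last range in every library, between 2714 and 3523 CPM, and Cyto-ID High F6 stands above the others in fatty acid genes from the range of 1 to 2 upward.

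Dhcr7 and Srebf1 did not follow. Dhcr7 went through 22.9, 21.3, 18.4, 15.4, 19.0 and 19.4 CPM, lowest in the middle, and Srebf1 through 15.2, 14.2, 11.6, 10.1, 8.74 and 9.70 CPM, lower in the last range than in the first in all 6 libraries. The fatty acid genes ranged from Scd2 (2.08-fold, 152, 148, 166, 179, 236 and 315 CPM) and Elovl1 (1.98-fold) to Scd1 (0.90-fold) and Elovl6 (0.88-fold). Scd1 was higher in the last range in 2 libraries and Elovl6 in 3. Within the desaturase pair and the elongase pair the folds thus lay on either side of 1, and the difference between the genes of a pair was not tested.

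**Figure D3:**
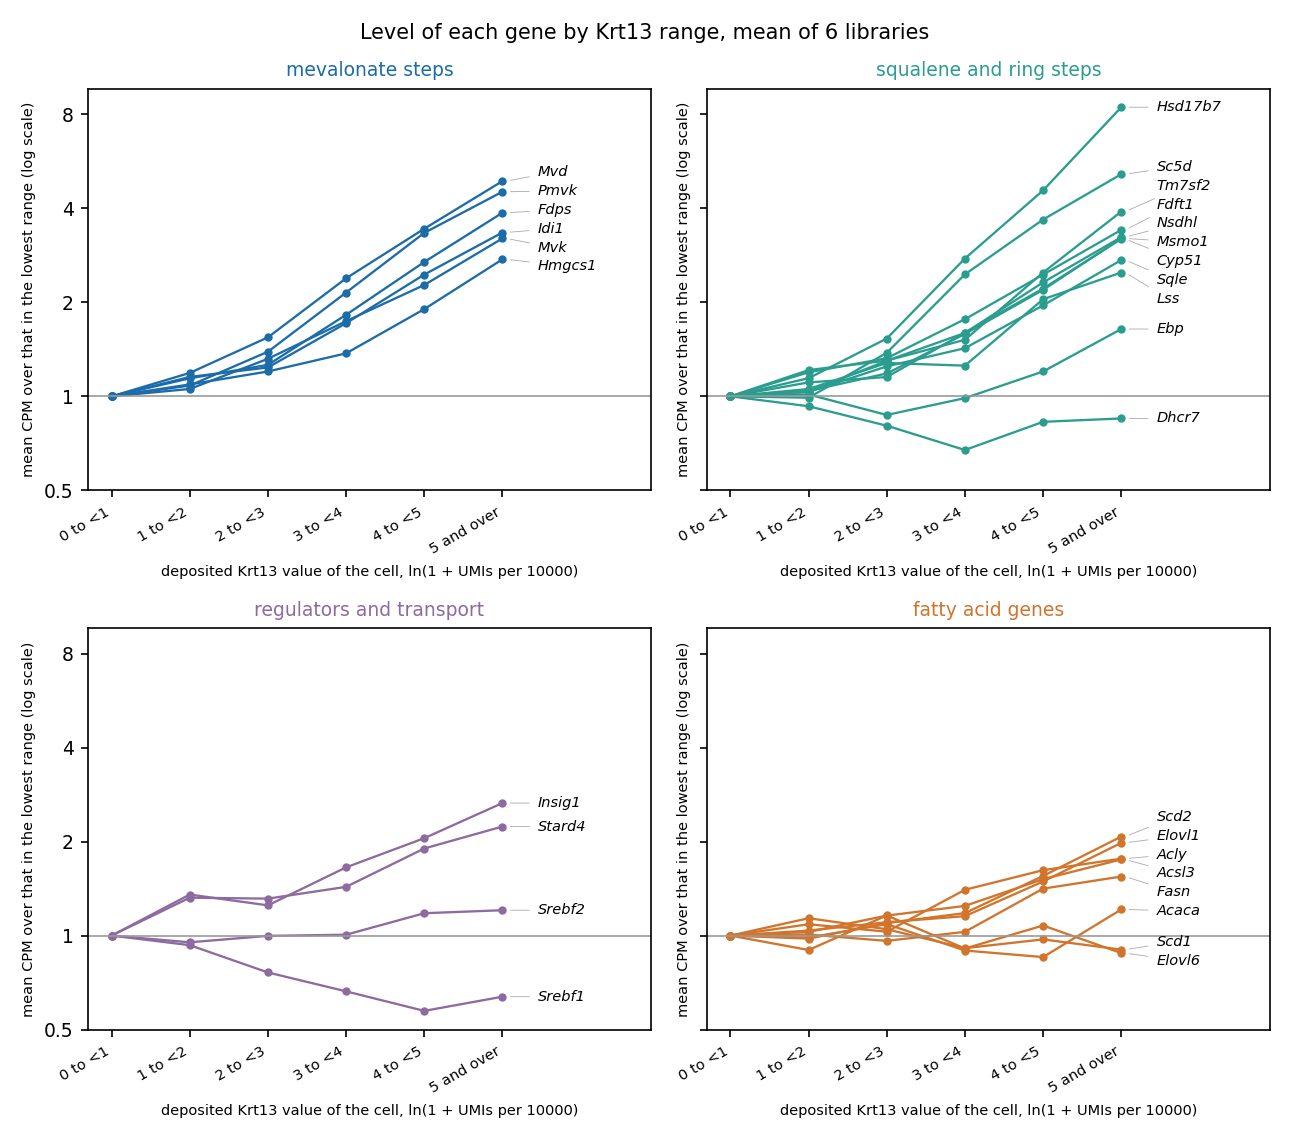
Mean CPM of each gene over the 6 libraries in each Krt13 range, divided by its mean in the lowest range (log2 axis, without TMM scaling), in one panel per role. Sterol genes other than Dhcr7 fan upward, from 1.64-fold for Ebp to 8.43-fold for Hsd17b7, while Srebf1 ends at 0.64 and Dhcr7, Scd1 and Elovl6 end between 0.85 and 0.90.

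The balance between the pathways can be read across layers of the same library. The sterol sum of Krt13-high cells was 2.04, 2.43 and 3.05 times that of Krt13-low cells in Cyto-ID Low F2, M3 and F6 and 1.83, 2.02 and 2.23 times in Cyto-ID High, 2.27 ± 0.433 (SD, n = 6). The fatty acid sum was 1.20, 1.30 and 1.52 times and 1.18, 1.23 and 1.71 times as high, 1.36 ± 0.210 (SD, n = 6). In each library the sterol sum thus differed more between layers than the fatty acid sum. The ratio of the sums was higher in Krt13-high cells by 0.76, 0.90 and 1.01 on the log2 scale in Cyto-ID Low and by 0.63, 0.71 and 0.39 in Cyto-ID High libraries. This difference of ratios does not depend on any scale factor, since both sums share one. Over all cells the ratio averaged 3.49 ± 0.159 for Cyto-ID Low libraries and 3.17 ± 0.860 for the Cyto-ID High libraries (SD, n = 3), a difference within the spread of the latter.

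Other genes of these pathways, taken from a fixed list, moved in both directions between layers, where 29.3% of all genes rose and 30.6% fell. Of 18 further genes of sterol synthesis, uptake and export 16 were tested, and 9 rose and 2 fell. Among the largest changes were those of Acat2, the thiolase at the head of the pathway (1.51, adjusted p = 2.30e-08), and Abca1, which exports cholesterol (−0.90, adjusted p = 6.52e-04). Soat1, which esterifies cholesterol, was the other gene that fell (−0.63). Of 23 further fatty acid and lipid genes 19 were tested, and 11 rose and 4 fell. The largest changes were those of Acss2, which makes acetyl-CoA from acetate (2.86, adjusted p = 7.88e-10), Dgat2, a triglyceride synthase (2.69, adjusted p = 1.55e-09), and Cers3, a ceramide synthase of epidermal lipids (2.21, adjusted p = 2.45e-08). The 4 that fell were Fads1 (−1.69) and Fads2 (−0.90), desaturases of polyunsaturated chains, Acsl4 (−0.84), which activates such chains, and Dgat1 (−0.35). Without TMM scaling the counts were 5 higher and 5 lower among the sterol-related genes and 9 higher and 6 lower among the fatty acid genes.

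Likeness to the summed sterol genes was measured for 4745 genes as Pearson's r over 36 points (6 libraries by 6 Krt13 ranges, centred on each library). The 10 most alike outside the 29 genes were Gjb2, Krt16, Serpinb1a, Gsta1, Anxa1, Krt6a, Acat2, Sprr2a3, Gipc1 and Krt6b, with r from 0.978 to 0.987. Among the 29 genes r was 0.998 for Fdps (part of the sum), 0.921 for Scd2, 0.60 for Srebf2, 0.067 for Acaca and −0.32 for Scd1. These are descriptions, since the points share libraries, depth and the Krt13 axis itself. Krt6a, Krt6b, Gsta1 and Sprr2a3 have near-identical copies, and how reads shared between copies were counted is not given in the sources used here.

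The next question was whether organoids from Cyto-ID High and Cyto-ID Low founders differ in these genes. No difference was detected: none of the 29 genes passed the threshold over all cells, where 0.12% of all genes did, in Krt13-low cells, where 0.23% did, or in Krt13-high cells, where 0.206% did. In limma the unadjusted p was under 0.05 for 1, 5 and 0 of the 29 genes respectively (3.45%, 17.2% and 0%). Of all genes it was 8.01%, 7.19% and 7.64%, so the share was above that of all genes in Krt13-low cells only. The lowest adjusted p of the 29 genes was 0.612, 0.541 and 0.692. Without TMM scaling the counts with an unadjusted p under 0.05 were 0, 2 and 0, the 2 in Krt13-low cells being 6.897% against 7.79% of all genes. With 3 libraries a group the 95% intervals of the 29 genes were wide. Their half-widths were 0.45 to 0.82 in Krt13-low and 0.55 to 0.97 in Krt13-high cells. These intervals are not adjusted for the number of genes, as the calls are. Changes of that size, and larger ones, could thus have been missed. In Krt13-low cells the fitted differences of all 17 sterol genes were above 0, with a median of 0.31. Of all genes 5495 of 11730 were above 0, with a median of −0.02. Without TMM scaling it was 14 of 17 sterol genes, with a median of 0.17, and 3798 of 11730 genes, with a median of −0.14. The 17 genes can move together within a library, so their signs are not independent. The suprabasal markers (Krt13, Krt4, Krtdap, Sbsn and Krt6a) moved alongside in Krt13-low cells, although Krt13 itself set the layers. Their sums were 1258 to 1399 CPM in Cyto-ID Low and 1812 to 2743 CPM in Cyto-ID High libraries. Of the 5, 4 were above 0 and Krtdap passed the test (5.04). Of the 5 superficial markers 3 were below 0, with a median of −0.44. Their sums were 1515 to 4386 CPM in Cyto-ID Low and 704 to 2653 CPM in Cyto-ID High libraries. The part of either list in the sterol values was not tested. In Krt13-high cells 9 of the 17 sterol genes were above 0, with a median of 0.02 (−0.01 without TMM scaling). The median of all genes was −0.02 there (−0.05 without TMM scaling). The fatty acid medians were 0.18 and 0.30 in these layers (0.05 and 0.27 without TMM scaling), with no gene past the threshold. None of the 16 further sterol-related and 19 further fatty acid genes tested over all cells passed either, and the unadjusted p was under 0.05 for 0 and 2 of them. With the replicate block 1 fatty acid gene, Elovl4, passed over all cells.

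**Figure D4:**
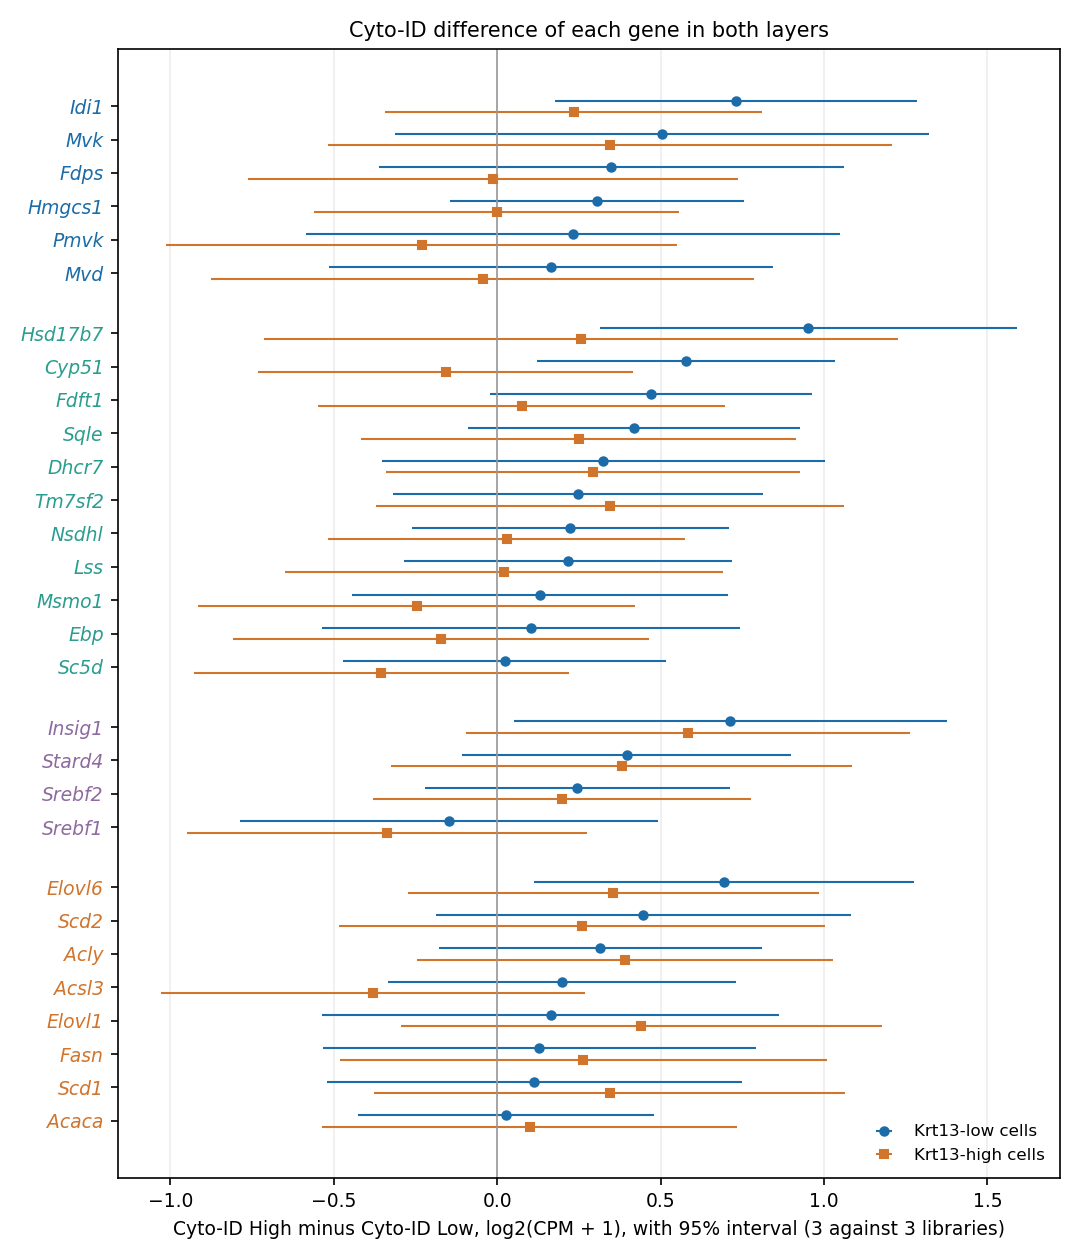
Fitted Cyto-ID High minus Cyto-ID Low difference of each of the 29 genes, in log2 of CPM + 1 after TMM scaling, with 95% intervals, in Krt13-low and Krt13-high cells (3 libraries a group). Sterol genes lie mostly to the right of 0 in Krt13-low cells, with a median of 0.31 against −0.02 for all genes (0.17 against −0.14 without TMM scaling). They lie around 0 in Krt13-high cells, and none of the 29 genes passes the adjusted threshold.

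Hsd17b7 showed the largest of these differences in Krt13-low cells, 0.95 (95% interval 0.31 to 1.59, adjusted p = 0.541). As the levels above show, its Cyto-ID Low libraries (7.13 to 9.83 CPM) and Cyto-ID High libraries (11.2 to 22.8 CPM) did not overlap there, with F6 the highest of Cyto-ID High. Cyp51 (0.58, interval 0.12 to 1.03) and Insig1 (0.71, 0.05 to 1.38) did not overlap either. How many of all genes separate the groups in this way was not counted. Idi1 (0.73, 0.18 to 1.29) and Elovl6 (0.69, 0.11 to 1.28) overlapped between the groups. These 4 genes had adjusted p from 0.606 to 0.673 in limma. The mitosis markers moved alongside in Krt13-low cells, 10 of 10 being above 0 with a median of 0.94, sums of 170.1 to 509 CPM in Cyto-ID Low and 449 to 574 CPM in Cyto-ID High libraries, and none past the threshold. Over all cells 10 of 10 were above 0 as well, with sums of 119 to 340 CPM and 358 to 447 CPM. The share of Krt13-high cells was 41.9% to 45.2% in Cyto-ID Low and 27.4% to 50.5% in Cyto-ID High libraries, and the part of either in the values of these genes was not tested. With every cell holding a mitosis-marker UMI left out, the sterol sum in Krt13-low cells averaged 844 CPM in Cyto-ID Low libraries. In Cyto-ID High libraries it averaged 963 CPM. With those cells kept, the averages were 877 and 1028 CPM.

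A test of the difference itself asked whether the step from Krt13-low to Krt13-high cells differs between the founder groups. The fitted differences leaned to a smaller sterol step in Cyto-ID High libraries, 16 of 17 being below 0 with a median of −0.32, against −0.01 for all genes and 0.06 for the fatty acid genes. No gene of the 29 passed, where 0.231% of all genes did, although 10 had an unadjusted p under 0.05 in limma (34.5%, against 9.96% of all genes), and 5 without TMM scaling (17.2%, against 10.9%). Genes of a pathway can move together within a library, so these counts are not of independent values. Of the marker lists, 4 of 5 suprabasal markers (median −0.39) and 9 of 10 mitosis markers (median −0.24) were below 0 as well. The suprabasal list includes Krt13, which set the layers. Fitted in each layer alone, the median founder difference of the superficial markers was −0.44 in Krt13-low and 0.04 in Krt13-high cells. For the basal markers it was −0.10 and −0.12. Of the Krt13-high cells, 13.3% to 15.7% lay within 0.5 of the cut in Cyto-ID Low libraries and 24.6%, 14.3% and 20.2% in Cyto-ID High F2, M3 and F6. The part of the suprabasal, superficial and basal markers or of these near-cut cells in the sterol values was not tested. With every cell holding a mitosis-marker UMI left out, the log2 ratio of the sterol to the fatty acid sum stepped by 0.93 on average in Cyto-ID Low libraries. In Cyto-ID High libraries it stepped by 0.63. With those cells kept, the averages were 0.89 and 0.58. The part of the mitosis markers was not tested further. The labels F2 and M3 deviated together between the groups (correlations of 0.76 and 0.58 over all cells), whereas F6 hardly did (0.15). These are correlations of levels, whereas a block in this test pairs the layer steps. Whether the steps deviate together by label was not computed. With the labels as a replicate block 4 of the 29 genes passed, all lower, where 1.78% of all genes did. Without TMM scaling 15 of 17 sterol genes were below 0, with a median of −0.21, and no gene of the 29 passed.

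Cyp51 had the largest of these differences, −0.75 (SE 0.152, adjusted p = 0.0836, and 0.00472 with the replicate block). Its steps were 1.53, 1.71 and 2.18 in Cyto-ID Low and 1.00, 1.04 and 1.12 in Cyto-ID High libraries. Acsl3 differed by −0.59 (SE 0.130, adjusted p = 0.105, and 0.0169 with the block), from steps of 1.15, 1.03 and 1.29 against 0.60, 0.46 and 0.63. In both genes every Cyto-ID Low step exceeded every Cyto-ID High step, and how many of all genes do so was not counted. Idi1 differed by −0.51 (adjusted p = 0.134, and 0.0215 with the block), with steps of 1.67, 1.85 and 1.86 against 1.18, 1.44 and 1.23. Hsd17b7 differed by −0.70 (adjusted p = 0.342, and 0.0377 with the block), and its steps of 2.39, 2.41 and 3.11 against 1.52, 1.93 and 2.35 came closest at 2.39 and 2.35. Cyto-ID Low F6 had the largest step of its group for each of these 4 genes. Without Cyto-ID Low F2, the fit without the block called Cyp51 (adjusted p = 0.0438), and no other gene of the 29.

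Mitotic Krt13-low cells (at least 2 UMIs of 10 mitosis markers, 3182 cells) were then set against Krt13-low cells with none (9854 cells), since dividing cells are known to build new membrane. Of the 29 genes 6 rose and none fell in mitotic cells, where 9.62% of all genes rose and 11.2% fell. They were Mvk, Idi1, Ebp and Dhcr7 of the sterol genes, the carrier Stard4 and the elongase Elovl6. The median change was 0.16 for the sterol and 0.01 for the fatty acid genes, against −0.07 for all genes (0.24, 0.10 and 0.01 without TMM scaling). Mitotic cells held 1.35 to 1.54 times the median UMIs of the others. With cells thinned to 1000 UMIs only Stard4 passed. Cells were assigned to the groups before thinning. A thinned cell keeps its expected CPM and gains counting error, so the part of depth was not tested.

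Stard4 stood at 12.4, 13.6 and 12.5 CPM (Cyto-ID Low) and 11.7, 19.3 and 13.4 CPM (Cyto-ID High) in other cells, and 22.2, 22.3 and 21.1 CPM and 25.8, 35.0 and 23.9 CPM in mitotic cells. Its mitotic level was the higher in each library, the change was 0.73 (SE 0.123, adjusted p = 5.09e-04), and it was 0.78 (adjusted p = 0.0304) after thinning. Mvk was at 16.95, 35.0 and 23.1 CPM (Cyto-ID Low) and 23.8, 46.1 and 24.3 CPM (Cyto-ID High) in other cells, and 27.6, 51.8 and 43.7 CPM and 36.4, 88.9 and 30.1 CPM in mitotic cells. It changed by 0.57 (SE 0.101, adjusted p = 7.57e-04), and by 0.40 (adjusted p = 0.148) after thinning. Idi1 was at 64.0, 43.9 and 41.3 CPM (Cyto-ID Low) and 61.0, 58.0 and 92.3 CPM (Cyto-ID High) in other cells, and 87.2, 66.1 and 51.3 CPM and 116, 79.4 and 114 CPM in mitotic cells. It changed by 0.41 (adjusted p = 0.00622), but by 0.12 after thinning. The groups of these genes overlapped across libraries, except for Stard4, where every mitotic value lay above every other value.

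**Figure D5:**
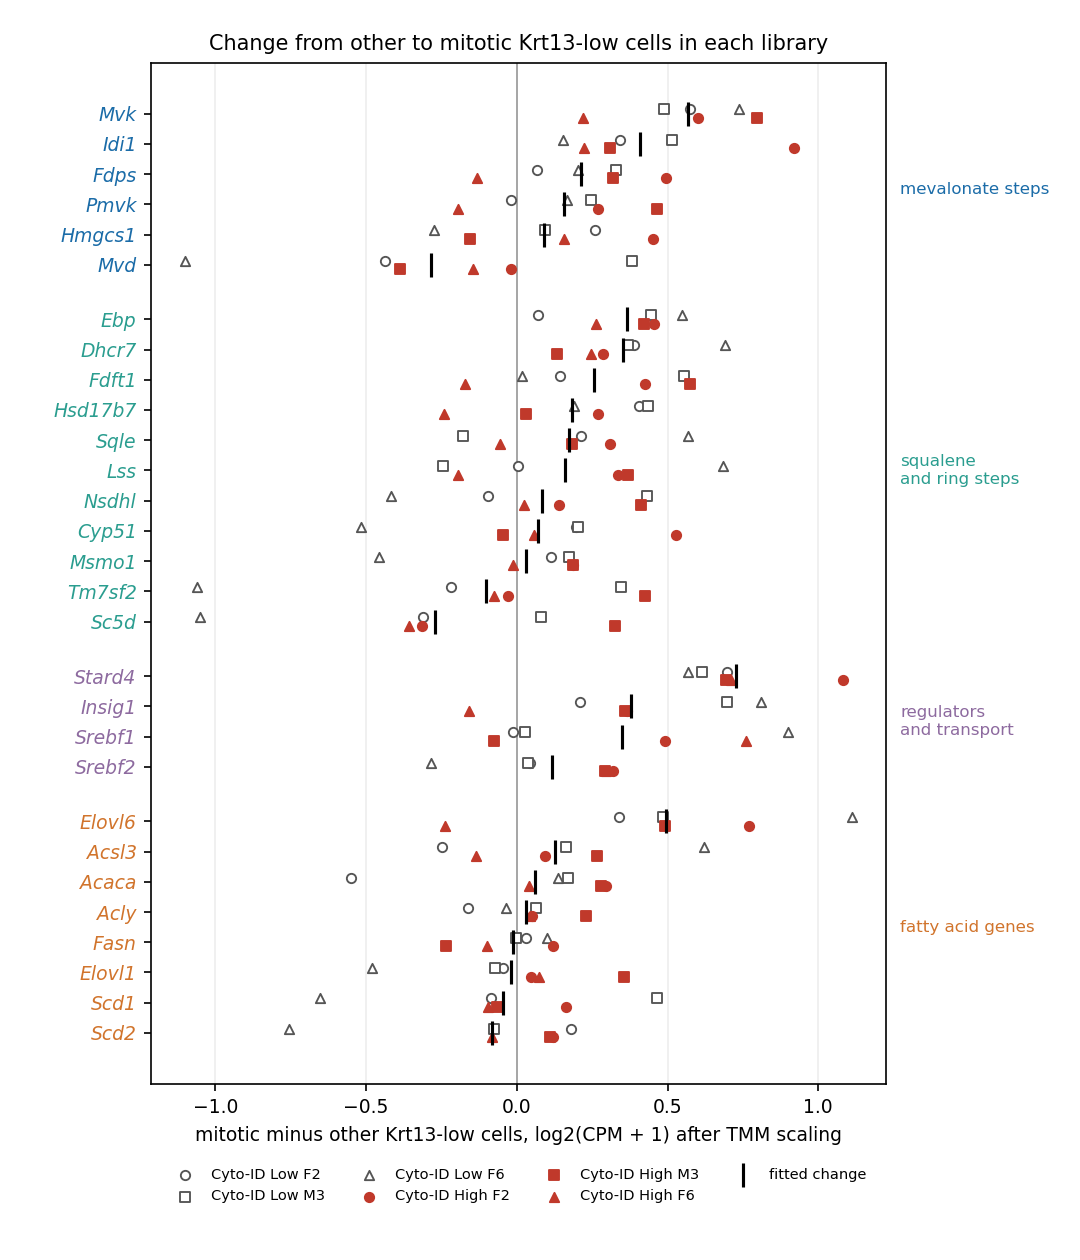
Difference between mitotic and other Krt13-low cells of each library for the 29 genes, in log2 of CPM + 1 after TMM scaling, with the symbols of the plot of layer differences. Stard4, Mvk, Idi1, Ebp and Dhcr7 lie to the right of 0 in all 6 libraries, and of these only Stard4 passes the test with cells thinned to 1000 UMIs.

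Ebp was at 61.4, 61.6 and 53.4 CPM (Cyto-ID Low) and 57.2, 83.8 and 36.6 CPM (Cyto-ID High) in other cells, and 69.1, 88.1 and 87.6 CPM and 78.3, 124 and 46.6 CPM in mitotic cells, a change of 0.37 (adjusted p = 0.00420). Dhcr7, which was not called between the layers, was at 12.5, 18.0 and 25.1 CPM (Cyto-ID Low) and 18.1, 19.8 and 26.4 CPM (Cyto-ID High) in other cells, and 17.8, 24.7 and 45.9 CPM and 22.1, 24.0 and 33.4 CPM in mitotic cells. Its change of 0.35 (adjusted p = 0.0391) was 0.00 after thinning and lost its call without any 1 library other than Cyto-ID High M3. Elovl6 was at 16.9, 13.9 and 9.72 CPM (Cyto-ID Low) and 19.7, 14.2 and 27.6 CPM (Cyto-ID High) in other cells, and 23.1, 20.8 and 24.7 CPM and 34.1, 22.5 and 24.6 CPM in mitotic cells, with Cyto-ID High F6 the one library where mitotic cells were lower. Its change of 0.49 (adjusted p = 0.0336) lost its call without any 1 library other than Cyto-ID High F6. Among the further genes of the pathways, Acat2 (0.64) rose in mitotic cells and Abca1 (−1.31) and Npc2 (−0.22) fell. Of the further fatty acid genes Acsl5 (0.72), Fads2 (0.33), Hsd17b12 (0.27) and Tecr (0.21) rose and Dgat2 (−1.40) fell. The mitotic part of Cyto-ID Low F6 held 118 cells, with 9 Stard4 UMIs and 1 Tm7sf2 UMI among them.

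Some of the genes overlap others in the GENCODE M21 annotation of GRCm38. Fdft1, Cyp51, Elovl1, Srebf1, Hmgcs1, Lss, Mvd, Idi1, Acaca and Elovl6 overlap a gene on the opposite strand. Tm7sf2, Fdps, Acsl3, Srebf1, Srebf2, Acly, Acaca, Elovl6 and Scd2 overlap one on the same strand, which for some is a microRNA gene. Whether reads were counted by strand is not given in the sources used here, so part of their counts could belong to those neighbours.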

How the data were processed

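Single-cell RNA from 6 organoid libraries was captured with a 10x 3′ kit (v3.1), per the labels' protocols, and the submitters' processing notes list Cell Ranger 6.0.0, Seurat 4 and the build mm10 (GRCm38). The authors deposited, for each library, natural log values of 1 plus UMIs per 10000 UMIs of the cell, from which whole UMIs were recovered for 100% of values within 1e-06. How the cells were filtered before deposit and doublets were treated is not given in the sources used here, and no doublet caller was run. Cells with 500 or more genes were kept, and at most 8 barcodes were shared between any pair of libraries. CPM were averaged over the cells of each library part and divided by TMM factors (30% and 5% trims; Krt13-low parts 1.00 to 1.26, Krt13-high parts 0.813 to 0.956). Genes that reached 1 CPM in 3 or more columns were tested with limma 3.58.1 in R 4.3.3 on log2(CPM + 1) with a mean-variance trend and Benjamini-Hochberg adjustment, so fold changes of low genes are understated. The fits were also run on simulated data with known changes, and the outcome is not reported here. Mean CPM per cell weight every cell equally, and intervals on counts would cover counting error only, as PCR and capture add their own. The libraries' labels paired F2 and M3, since deviations from the group means correlated at 0.76 (F2) and 0.58 (M3) over 8878 genes. For F6 the correlation was 0.15, below the 0.17 of Cyto-ID Low F2 with Cyto-ID High F6, so its pairing was not shown. The 29 genes and all lists were chosen with earlier results of these data known. Values by library are given for genes past the threshold in any comparison, and also, chosen after their values were seen, for Scd1 and Srebf1. Of further pathway genes the 3 largest changes are named, except that some results are not reported here. Promoter windows and motifs came from RefSeq (GRCm38.p6), without chromosome 18, for 23 of the 29 genes. Alternatives covered scaling, pseudocount, filter, summed UMIs, thinning, cell filters, the Krt13 cut, the mitosis cut, the block and each library left out.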

Additional observations from a re-analysis of the deposited data

Results flagged for a closer look

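In 5 of 58 sets of 6 per-library steps, 1 library stood apart from the others by more than Dixon's test allows at 95%, and chance alone flags about 1 set in 20. Pmvk had its largest layer step in Cyto-ID Low F6, at 2.68. Between mitotic and other Krt13-low cells, Stard4 was highest in Cyto-ID High F2, at 1.08, and Acaca lowest in Cyto-ID Low F2, at −0.55. In the same comparison Cyto-ID Low F6 was lowest for Msmo1, at −0.46, and for Scd2, at −0.75, where its 118 mitotic cells held 20 Msmo1 and 27 Scd2 UMIs.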

How the results depend on the processing

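Between layers 24 to 27 of the 29 genes passed the threshold over the 17 alternatives. Between founder groups 0 passed in each of 15 alternatives over all cells and of 17 in either layer. Of single genes (those called or, between founder groups, with an unadjusted p under 0.05) 755 of 814 values kept direction and call, 49 lost and 7 gained the call and 3 reversed. These reversals were, between layers, Acaca at −0.13 and Elovl6 at −0.0521 without TMM scaling, and Elovl6 at −0.0776 with thinned cells. Of genes not called between layers, Dhcr7 turned to −0.27 and Scd1 to −0.17 without TMM scaling. One list reversed: the sterol median in mitotic cells became −0.0099 with the Krt13 cut at 4. For the difference of the layer step, summed UMIs gave 2 genes past the threshold, the replicate block 4, and leaving out a library 0 to 1, against 0. For mitotic cells thinning gave 1, cells with 1000 or more genes 3 and no library block 1, against 6. The causes were not tested, beyond the fewer cells or UMIs that thinning and the stricter cell filter leave. Over all genes, calls between founder groups were 14 over all cells (0 to 70 under alternatives, 6 to 20 with a library left out), 27 in Krt13-low cells (2 to 81, 6 to 28) and 23 in Krt13-high cells (0 to 87, 0 to 30). The difference of the layer step gave 28 (0 to 216, 5 to 88), the layers 7273 (4190 to 8781) and mitotic cells 2551 (661 to 3203). Of the calls in mitotic cells 46.3% were higher, and 65.2% without TMM scaling. For the difference of the step 32.1% were higher, and 55% without it. The replicate block called 4 of the 29 genes in the difference of the step and 0 between founder groups in all cells, Krt13-low or Krt13-high cells, and changed no other call of the 29 genes. It raised the calls over all genes to 70, 81 and 87 in those 3 comparisons and to 216 for the difference of the step. Depth limits the values of Cyto-ID Low F6, with 8457489 UMIs in all, and of Cyto-ID High F6, with a median of 1940.5 UMIs per cell.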

Other observations

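Outside the 29 genes, Elovl4, an elongase of very long chains, was at 0.848, 0.812 and 0.955 CPM (Cyto-ID Low) and 2.72, 1.96 and 4.69 CPM (Cyto-ID High) in Krt13-low cells, and 2.27, 2.21 and 3.35 CPM and 14.4, 7.53 and 28.8 CPM in Krt13-high cells. Every Cyto-ID High value exceeded every Cyto-ID Low value within each layer. Its difference was 1.67 over all cells (adjusted p = 0.113 in limma, and 0.0236 with the replicate block) and 2.17 in Krt13-high cells (adjusted p = 0.116, and 0.0131 with the block). In Krt13-low cells none of the 19 further fatty acid genes tested passed, with or without the block. The Cyto-ID Low values of Elovl4 there lay under the 1 CPM added before the log. Fabp5, a fatty acid carrier of stratified epithelia, was at 2519, 8258 and 4359.7 CPM (Cyto-ID Low) and 5138, 14588 and 9658 CPM (Cyto-ID High) in Krt13-low cells, and 5087, 15162 and 6619 CPM and 16407, 36639 and 23420.3 CPM in Krt13-high cells. Within each of F2, M3 and F6 the Cyto-ID High library was the higher in both layers, and M3 was the highest library of each group. The groups overlapped in Krt13-low cells and did not in Krt13-high cells, and no founder comparison of Fabp5 passed (adjusted p from 0.619 to 0.716 in limma). The step of Fabp5 between layers differed by 0.48, Cyto-ID High minus Cyto-ID Low (adjusted p = 0.278 in limma, and 8.98e-04 with the block). Both genes were singled out after their values were seen, and how many of all genes separate the groups in this way was not counted.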
